A study of Mus musculus with 8 samples.

Results

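The miR-23/27/24 clusters were followed across 8 small RNA libraries of mouse cells. Their members were taken by name, as the deposited entries for mmu-miR-23a-3p, mmu-miR-27a-3p, mmu-miR-27a-5p and mmu-miR-24-2-5p (the a cluster), mmu-miR-23b-3p, mmu-miR-27b-3p and mmu-miR-24-1-5p (the b cluster), and mmu-miR-24-3p, which both clusters encode. The mouse prefix mmu is left off from here on. All 8 members were listed in all 5 tables, among 1978 mature miRNAs in each of the C2C12 hairpin tables, 605 in the ATF4 table and 696 in the P19 table.

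The C2C12 line consists of mouse skeletal myoblasts that fuse into myotubes in differentiation medium. These cells carried a lentiviral short hairpin, either the control shNC or shPerk, directed at Perk, and both lines were sequenced at day 0, before differentiation, and at day 3 of differentiation. A further pair of C2C12 libraries came from cells with an ATF4 overexpression construct driven by the EF1α promoter and from cells with the vector alone. The study kept this pair in growth medium, and its labels give no day. The last pair came from P19 mouse embryonal carcinoma cells with shNC or shPerk, whose day and induction state the labels do not give. The C2C12 hairpin lines were selected with puromycin. How the P19 lines were selected, and whether each line was a pool or a clone, is not given in the sources used here. PERK is a sensor kinase of the unfolded protein response that acts through eIF2α, and ATF4 is the transcription factor whose translation this pathway favors. There was 1 library for each condition, so every comparison is between 2 libraries and none has a replicate check.

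The mouse genome holds these miRNAs as a pair of paralogous clusters. Each cluster has 1 hairpin each for miR-23, miR-27 and miR-24, transcribed together. A hairpin is cut into a 5p and a 3p arm, and for miR-23, miR-27 and miR-24 the 3p arm is the usual guide strand. In skeletal muscle, miR-27 is known to repress Pax3, a transcription factor of muscle progenitors, and the myostatin mRNA. miR-23a is known to repress the ubiquitin ligases of muscle atrophy, Fbxo32 and Trim63. miR-24 is known to promote myoblast differentiation and to be repressed by TGFβ signaling.

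In GRCm38.p6, the a cluster lies on the plus strand of chromosome 8, where Mir23a (84208518 to 84208592), Mir27a (84208672 to 84208758) and Mir24-2 (84208815 to 84208921) follow each other within 404 bases. GENCODE M21 places Mir24-2 in an exon of the lincRNA Gm26532 and no other gene at Mir23a or Mir27a. The b cluster lies on the plus strand of chromosome 13, where Mir23b (63300484 to 63300557), Mir27b (63300712 to 63300784) and Mir24-1 (63301208 to 63301275) span 792 bases. These 3 hairpins lie inside the protein-coding gene 2010111I01Rik on the same strand, Mir23b in an intron and Mir27b and Mir24-1 in annotated exons, and opposite to an intron of Fancc.

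The mature sequences show which reads can be assigned to a cluster. RefSeq sequences for GRCm38.p6 were matched for 7 of the 8 members, all but miR-23b-3p. They are printed 5′ to 3′ with the seed (bases 2 to 8), which pairs with target mRNAs, in capitals.
miR-23a-3p (chr8:84208563-84208583): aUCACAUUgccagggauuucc
miR-27a-3p (chr8:84208727-84208747): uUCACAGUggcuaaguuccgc
miR-27b-3p (chr13:63300760-63300780): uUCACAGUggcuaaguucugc
miR-24-3p (chr8:84208875-84208896 and chr13:63301251-63301272): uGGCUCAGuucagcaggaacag
miR-24-2-5p (chr8:84208839-84208860): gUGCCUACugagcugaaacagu
miR-24-1-5p (chr13:63301213-63301235): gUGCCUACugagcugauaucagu
miR-27a-5p (chr8:84208685-84208706): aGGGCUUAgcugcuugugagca
Mature miR-27a-3p and miR-27b-3p have the same seed and differ by 1 substitution, C19U, counted from the 5′ end of miR-27a-3p. Mature miR-24-3p is identical in both clusters, so its reads cannot be assigned to a gene. The 5p arms of miR-24 tell the genes apart, but only after their first 16 bases, which they share. How reads that match several miRNAs were counted is not given in the sources used here, so a read cut short before these positions leaves the split between a and b uncertain.

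The 4 hairpin libraries held 8800977 to 11993448 reads on miRNAs. The ATF4 and P19 pairs were deposited as RPM (reads per 1000000 miRNA reads), without read counts. The labeled cell types were checked against marker miRNAs. The 5 muscle miRNAs summed to 2467 to 88539 CPM or RPM in the C2C12 libraries and to 51.9 and 113 RPM in the P19 libraries, whose table lists 4 of the 5. The 11 markers of pluripotent mouse cells, from the clusters of miR-290 to miR-295 and of miR-302 with miR-367, summed to 217778 and 456092 RPM in P19 shNC and shPerk cells and to at most 0.707 CPM (reads per 1000000, from the counts) in the C2C12 hairpin libraries, and 0 of the 11 are listed in the ATF4 table. The 5 epithelial miRNAs summed to 2.33 to 4.77 CPM in the hairpin libraries, and 1 of the 5 is listed in the ATF4 table, at 3.02 RPM with the vector and 4.36 RPM with ATF4. The liver miRNA miR-122-5p was at 2.76 to 10.1 CPM in the hairpin libraries and at 4.67 and 10.55 RPM in P19 cells. Of the 3 blood-cell miRNAs, 1 is listed in the P19 table, at 29.7 and 28.1 RPM. Perk and Atf4 mRNA are not measured by small RNA libraries, so the knockdown and the overexpression were not checked here.

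Within myoblasts the clusters were abundant and kept much the same order. The 8 members together took 4.85% of miRNA reads in shNC cells at day 0, 6.71% in shNC cells at day 3, 7.34% in shPerk cells at day 0 and 9.18% in shPerk cells at day 3. They took 5.80% with the vector and 5.84% with ATF4, against 2.77% and 1.62% in P19 shNC and shPerk cells. A share of reads falls when other miRNAs take more. The 11 pluripotency markers took 217778 and 456092 RPM in these P19 libraries, and the 5 muscle miRNAs took 3845 to 88539 CPM in the hairpin libraries. The part of these markers in the shares was not tested. With TMM factors the median log2 fold change of the members in the P19 pair was -0.18. In all 6 C2C12 libraries miR-24-3p was the highest member, miR-27b-3p the second, miR-27a-3p the third and miR-24-1-5p the lowest. Below these, miR-23a-3p and miR-23b-3p changed places between libraries, as did miR-24-2-5p and miR-27a-5p. In shPerk cells at day 3 miR-24-2-5p also ranked above miR-23a-3p. In both P19 libraries miR-27b-3p was the highest member and miR-24-3p the second. These orders are by reads, and since linkers join different miRNAs with different efficiency, a gap between members is not a ratio of molecules.

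miR-24-3p stood at 25729.7 and 33588.5 CPM in shNC and shPerk cells at day 0, and at 29580.4 and 51374 CPM at day 3. It stood at 25120 RPM with the vector, 23996 RPM with ATF4, and 5154 and 3061 RPM in P19 shNC and shPerk cells. The shPerk library at day 3 was the highest of all 8, and the P19 libraries were the lowest.

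miR-27b-3p stood at 10252 and 18133 CPM in shNC and shPerk cells at day 0, and at 21543 and 19700.1 CPM at day 3. It stood at 15257 RPM with the vector, 20559 RPM with ATF4, and 19569.8 and 11160.5 RPM in P19 shNC and shPerk cells. Its P19 levels thus lay inside the range of the C2C12 libraries.

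miR-27a-3p, with the same seed, stood at 7394 and 12748 CPM in shNC and shPerk cells at day 0, and at 9191 and 11996 CPM at day 3. It stood at 9790.3 RPM with the vector, 6694 RPM with ATF4, and 615 and 733 RPM in P19 shNC and shPerk cells. Unlike miR-27b-3p, its P19 levels lay below every C2C12 library.

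miR-23a-3p stood at 1850.2 and 2772 CPM in shNC and shPerk cells at day 0, and at 2124 and 1279 CPM at day 3. It stood at 3565 RPM with the vector, 2400.4 RPM with ATF4, and 244 and 108 RPM in P19 shNC and shPerk cells. Among the C2C12 libraries its lowest level was in shPerk cells at day 3.

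miR-23b-3p stood at 1543 and 3385 CPM in shNC and shPerk cells at day 0, and at 2999 and 4007 CPM at day 3. It stood at 1693 RPM with the vector, 2802 RPM with ATF4, and 1923 and 912 RPM in P19 shNC and shPerk cells. Its highest level was in shPerk cells at day 3, the library where miR-23a-3p was lowest among the C2C12 libraries.

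The remaining members were minor arms. In the C2C12 libraries miR-24-2-5p ranged from 1100.3 to 2773 CPM or RPM, miR-27a-5p from 516 to 1428 CPM or RPM and miR-24-1-5p from 16.7 to 142 CPM or RPM. miR-24-1-5p had the widest range of the 8 members in C2C12 cells, 8.50-fold, against 1.90-fold to 2.79-fold for the others. Its range runs across experiments, from the vector library to shPerk cells at day 3. Within the hairpin libraries miR-24-1-5p went from 29.7 to 142 CPM. In the P19 libraries miR-24-2-5p was at 52.9 and 63.7 RPM, miR-27a-5p at 97.4 and 121 RPM, and miR-24-1-5p at 15.5 and 7.63 RPM.

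**Figure D1:**
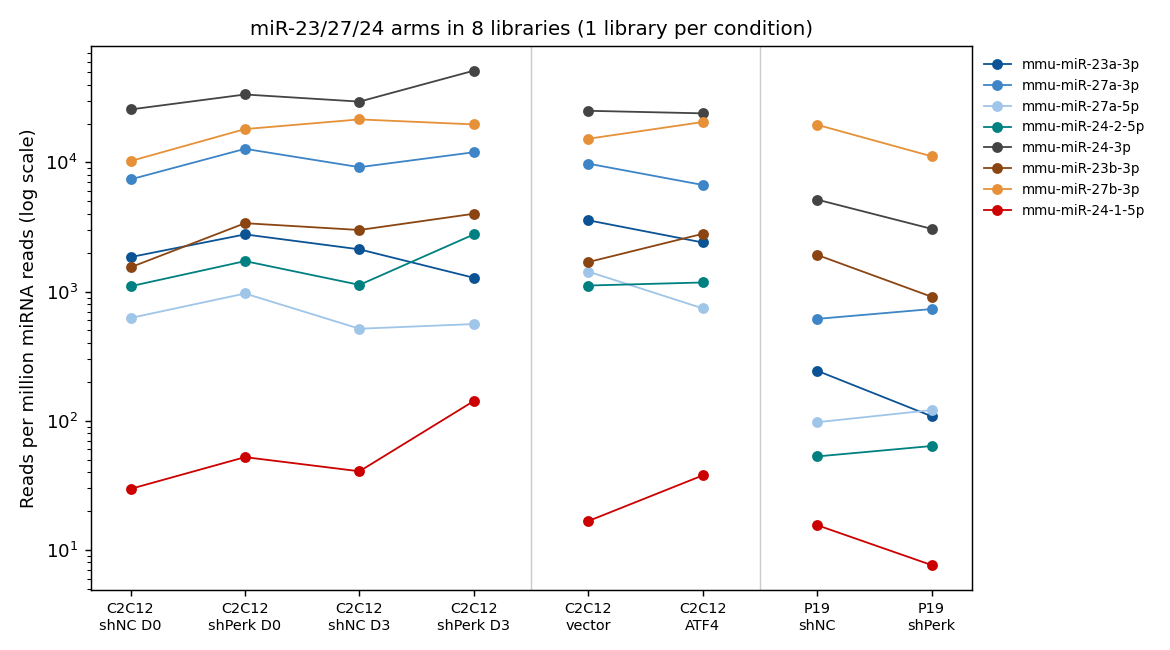
Level (CPM for the 4 hairpin libraries and RPM for the others, log scale) of the 8 members in each of the 8 libraries, with lines joining libraries of one experiment and no error bars because each condition has 1 library. The a-cluster arms (blue and teal) lie lower in P19 than in C2C12 libraries, while miR-27b-3p (light orange) is at 11160.5 to 19569.8 RPM in P19 cells.

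The balance of the clusters was then read within each library, as the share of reads from the b cluster, which does not depend on the scaling between libraries. Intervals are 95% Clopper-Pearson intervals that treat each read as separate, so they cover counting error alone and no spread between replicates. Copies made by PCR and counted as separate reads make them too narrow even for this. Whether molecular identifiers were used is not given in the sources used here. For miR-27-3p, the b share was 58.1% (57.9 to 58.3) in shNC and 58.7% (58.5 to 58.9) in shPerk cells at day 0. At day 3 it was 70.1% (69.9 to 70.2) in shNC and 62.2% (62.0 to 62.3) in shPerk cells. It was 60.9% with the vector and 75.4% with ATF4. In P19 cells it was 97.0% with shNC and 93.8% with shPerk. C2C12 cells thus had a mixture of miR-27a-3p and miR-27b-3p, and P19 cells almost entirely miR-27b-3p.

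For miR-23-3p, the b share was 45.5% (45.0 to 46.0) in shNC and 55.0% (54.6 to 55.4) in shPerk cells at day 0, and 58.5% (58.2 to 58.9) and 75.8% (75.4 to 76.2) at day 3. It was 32.2% with the vector, 53.9% with ATF4, and 88.7% and 89.4% in P19 shNC and shPerk cells. The vector library and the shNC library at day 0 were the only ones of the 8 with more miR-23a-3p than miR-23b-3p.

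For the 5p arms of miR-24, the b share (miR-24-1-5p) was far lower in every library. It was 2.63% (2.36 to 2.92) in shNC and 2.95% (2.69 to 3.22) in shPerk cells at day 0, and 3.48% (3.18 to 3.79) and 4.88% (4.63 to 5.14) at day 3. It was 1.48% with the vector, 3.11% with ATF4, and 22.7% and 10.7% in P19 shNC and shPerk cells. A share of 5p reads also depends on how many 5p reads each hairpin leaves per 3p read. In shNC cells at day 0, miR-27a had 0.0845 reads of the 5p arm per read of the 3p arm, and miR-27b had 0.0144. The miR-24 5p share is thus not a measure of the share of each cluster. For miR-24 this was not tested, since both hairpins give the same 3p arm. For all 3 pairs of arms, both P19 libraries had a higher b share than each of the 6 C2C12 libraries. Cell line and experiment differ together in this contrast and cannot be told apart.

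**Figure D2:**
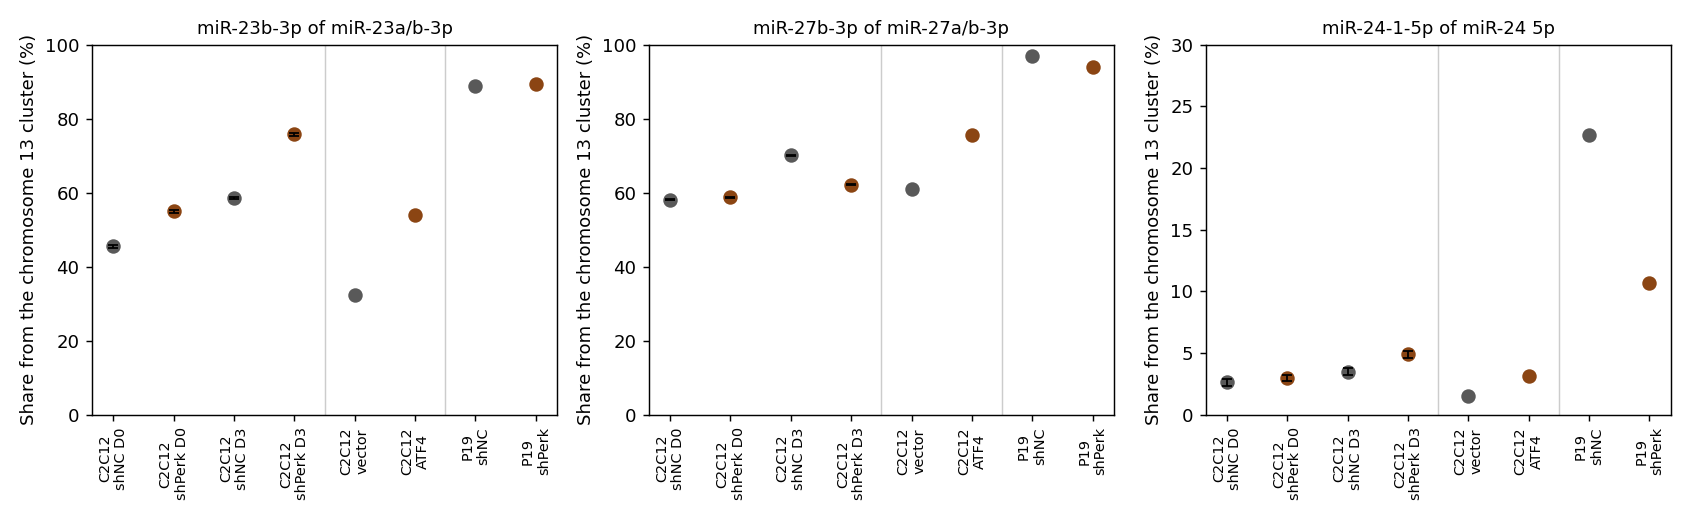
Share of reads from the chromosome 13 cluster (%) for miR-23-3p, miR-27-3p and the miR-24 5p arms in each library, with gray points for shNC and vector, brown points for shPerk and ATF4, and bars for 95% Clopper-Pearson intervals where reads were counted. The third panel runs to 30% only, and its P19 points are at 22.7% and 10.7%.

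The next comparison asked how the clusters changed in normal differentiation, from day 0 to day 3 in shNC cells. Fold changes use TMM factors, which scale the 2 libraries to their less extreme miRNAs, so they differ from ratios of CPM. With TMM factors every one of the 8 members had a log2 fold change above 0 (all but miR-27a-5p did so under each scaling), with a median of 0.62 against 0.05 over all 593 miRNAs tested. The b-cluster guides changed most: miR-27b-3p went from 116073 to 258378 reads, with a log2 fold change of 1.43 (1.42 to 1.44), and miR-23b-3p from 17466 to 35965 reads, with a log2 fold change of 1.32 (1.29 to 1.34). These were the 2 members higher by more than 2-fold, where 15.3% of all miRNAs were (29% in either direction). With scaling to the library totals, miR-23b-3p was at 0.96 and only miR-27b-3p stayed beyond 2-fold. With these totals 51 of the 593 miRNAs were higher and 140 lower by more than 2-fold.

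The a-cluster guides changed less in the same pair of libraries. miR-27a-3p went from 83716 to 110228 reads, with a log2 fold change of 0.67 (0.66 to 0.68), and miR-23a-3p from 20948 to 25469 reads, with a log2 fold change of 0.56 (0.53 to 0.58). miR-24-3p had a log2 fold change of 0.56 (0.55 to 0.57) and miR-24-1-5p of 0.81 (0.61 to 1.01). miR-27a-5p was at 0.08 (0.03 to 0.13), and lay below 0 with library totals (-0.28) and with upper-quartile factors. The ratio of b to a reads was 1.69-fold higher at day 3 for miR-23-3p and likewise 1.69-fold higher for miR-27-3p, and 1.34-fold higher for the miR-24 5p arms. On the log2 scale these changes were 0.76 (0.72 to 0.80), 0.76 (0.74 to 0.77) and 0.42 (0.21 to 0.62), each with a counting interval above 0.

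ATF4 overexpression asked whether the transcription factor downstream of PERK moves these miRNAs in cells kept in growth medium. The study reports cell fusion in this medium with ATF4, and more MyoD protein with ATF4, for which it names no medium. All 3 b-cluster members were higher with ATF4 and all 3 a-cluster members other than miR-24-2-5p were lower. The log2 fold changes were 0.79 for miR-23b-3p, 0.49 for miR-27b-3p and 1.24 for miR-24-1-5p, which went from 16.7 to 37.7 RPM. They were -0.51 for miR-23a-3p, -0.48 for miR-27a-3p and -0.88 for miR-27a-5p. miR-24-2-5p had 0.14 (-0.24 with upper-quartile factors), and miR-24-3p had -0.00, with 25120 and 23996 RPM. By the 2-fold limit 1 member was called, miR-24-1-5p, which is higher, where 14.5% of the 605 miRNAs were (23.5% in either direction). With upper-quartile factors miR-24-1-5p was at 0.86, within the limit, and miR-27a-5p was at -1.26, beyond it. By these factors 53 of the 605 miRNAs were higher and 124 lower by more than 2-fold. The member median was 0.07 against -0.00 over all miRNAs.

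Within the ATF4 pair, the ratio of b to a reads was 2.46-fold higher for miR-23-3p, 1.97-fold higher for miR-27-3p and 2.14-fold higher for the miR-24 5p arms. The ratio of miR-23a-3p to miR-27a-3p stayed at 364 and 359 per 1000 reads, a log2 change of -0.02. No interval can be given for this pair, since the table gives no read counts. Marker miRNAs differed between the libraries as well. The 5 muscle miRNAs summed to 2467 RPM with the vector (miR-499-5p at 0) and to 3793 RPM with ATF4. The 3 blood-cell miRNAs summed to 65.4 and 45.0 RPM, and the liver miRNA miR-122-5p was at 79.7 and 26.1 RPM. The part of these markers in the result was not tested.

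PERK knockdown at day 0 was compared next, in myoblasts before induction. All 8 members had more reads per TMM-scaled library in shPerk than in shNC cells, under each scaling tried. The log2 fold change was highest for miR-23b-3p, at 1.29 (1.27 to 1.32), with 17466 reads in the control and 29795 in the knockdown library. It was 0.98 (0.97 to 0.99) for miR-27b-3p, 0.97 (0.77 to 1.18) for miR-24-1-5p and 0.94 (0.93 to 0.96) for miR-27a-3p. The a-cluster members miR-24-2-5p, miR-27a-5p and miR-23a-3p had 0.80, 0.79 and 0.74, and miR-24-3p had the lowest value, 0.54 (0.54 to 0.55).

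By the 2-fold limit 1 of 8 members was called higher, where 16.6% of 602 miRNAs were (36.5% in either direction). With TMM factors from the 4 hairpin libraries together, miR-27b-3p and miR-24-1-5p crossed the limit as well and 3 were called. By those factors 107 of the 602 miRNAs were higher by more than 2-fold. By a limit of 1.5-fold, 7 of 8 were higher, where 29.1% of all miRNAs were higher, and the member median was 0.87 against -0.03. Markers of other cells also moved in this pair: the 3 blood-cell miRNAs (miR-142a-3p, miR-223-3p and miR-451a) summed to 8.74 CPM in shNC and 234 CPM in shPerk cells, with miR-223-3p at 0 in both. The 5 muscle miRNAs summed to 19171 and 3845 CPM. Their part in the result was not tested.

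At day 3 the members of each cluster parted in the knockdown comparison. The 3 members of miR-24 were the ones higher by more than 2-fold in shPerk cells, where 21.2% of the 575 miRNAs were (45% in either direction). miR-24-1-5p went from 487 to 1341 reads, with a log2 fold change of 2.07 (1.92 to 2.23). miR-24-2-5p went from 13517 to 26141 reads, with a log2 fold change of 1.56 (1.53 to 1.59), and miR-24-3p from 354771 to 484370 reads, with a log2 fold change of 1.06 (1.06 to 1.07). miR-24-3p was within 2-fold with library totals (0.80) and with upper-quartile factors (0.83).

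The guides of miR-23 and miR-27 stayed within 2-fold in the same pair. miR-23b-3p had a log2 fold change of 0.68 (0.66 to 0.70) with 35965 and 37778 reads, and miR-27a-3p of 0.65 (0.64 to 0.66) with 110228 and 113099 reads. miR-27b-3p, with 258378 and 185737 reads, was at 0.14 (0.13 to 0.15), which turned to -0.13 with library totals and lay below 0 with upper-quartile factors too. miR-23a-3p was the only member below 0, from 25469 to 12058 reads, with a log2 fold change of -0.47 (-0.50 to -0.43) that stayed below 0 under each scaling. The member median was 0.67 against -0.05 over all miRNAs. The blood-cell miRNAs summed to 7.67 and 78.4 CPM in this pair and the muscle miRNAs to 88539 and 24348 CPM, and their part in the result was not tested.

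**Figure D3:**
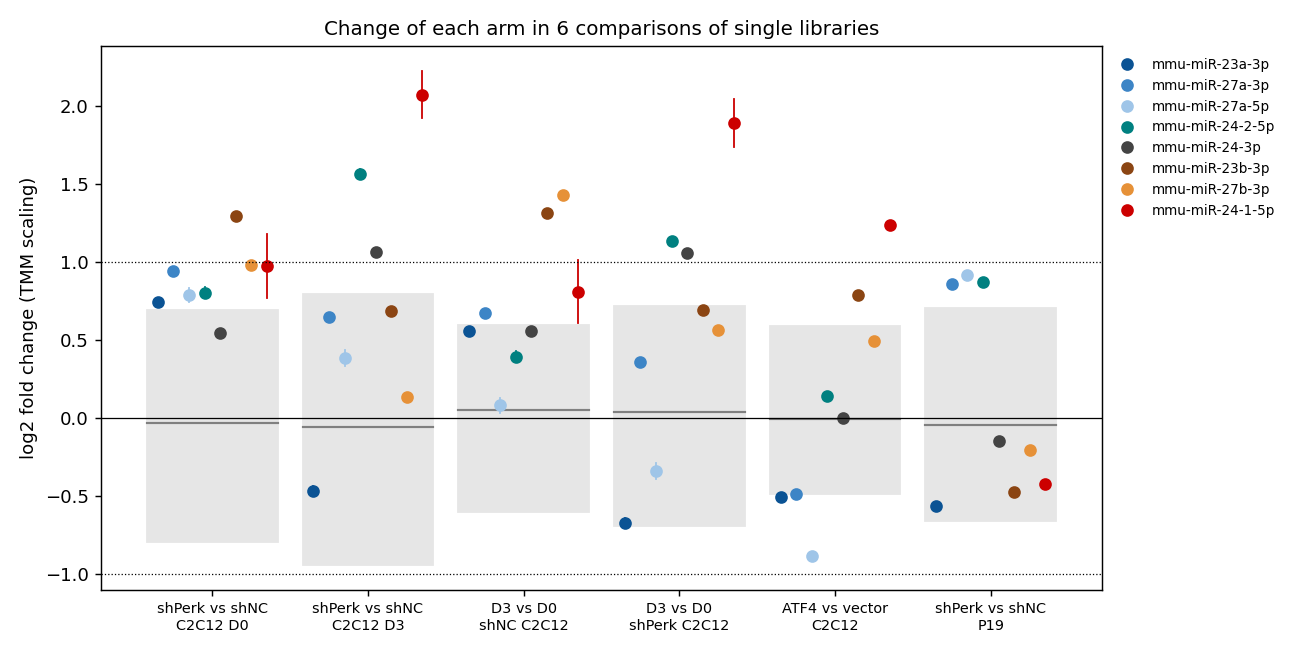
Log2 fold change (TMM scaling) of each member in the 6 comparisons, with 95% counting intervals where reads were counted, gray boxes for the middle 50% of all miRNAs tested, a gray line for their median and dotted lines at 2-fold. In the day 3 knockdown comparison miR-24-1-5p is at 2.07 and miR-23a-3p at -0.47.

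The same parting was seen within clusters, in ratios that need no scaling. In the a cluster, miR-23a-3p had 250 reads per 1000 reads of miR-27a-3p in shNC and 217 in shPerk cells at day 0, and 231 and 107 at day 3. The log2 change on knockdown was -0.20 (-0.23 to -0.17) at day 0 and -1.12 (-1.15 to -1.08) at day 3, so the shPerk library at day 3 stood apart. miR-24-2-5p had 149, 135, 123 and 231 reads per 1000 reads of miR-27a-3p in the same order of libraries, a log2 change of 0.91 (0.88 to 0.95) on knockdown at day 3. Reads of miR-24-2-5p thus went from 531 to 2168 per 1000 reads of miR-23a-3p, though both come from hairpins of 1 cluster.

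In the b cluster, miR-23b-3p had 150 and 187 reads per 1000 reads of miR-27b-3p in shNC and shPerk cells at day 0, and 139 and 203 at day 3. The log2 change on knockdown was 0.31 (0.28 to 0.34) at day 0 and 0.55 (0.52 to 0.57) at day 3, so the ratio of miR-23 to miR-27 guides changed in opposite directions in the clusters. miR-24-1-5p had 2.89 and 2.88 reads per 1000 reads of miR-27b-3p at day 0, and 1.88 and 7.22 at day 3. The knockdown change of this ratio was -0.01 (-0.21 to 0.20) at day 0 and 1.94 (1.79 to 2.09) at day 3.

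The balance between clusters moved in opposite directions for miR-23 and miR-27 on knockdown at day 3. The ratio of b to a reads had a log2 change of 1.15 (1.11 to 1.19) for miR-23-3p and of -0.51 (-0.53 to -0.50) for miR-27-3p. At day 0 the changes were 0.55 (0.51 to 0.59) and 0.04 (0.02 to 0.05). For the miR-24 5p arms they were 0.17 (-0.04 to 0.38) at day 0 and 0.51 (0.36 to 0.66) at day 3.

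**Figure D4:**
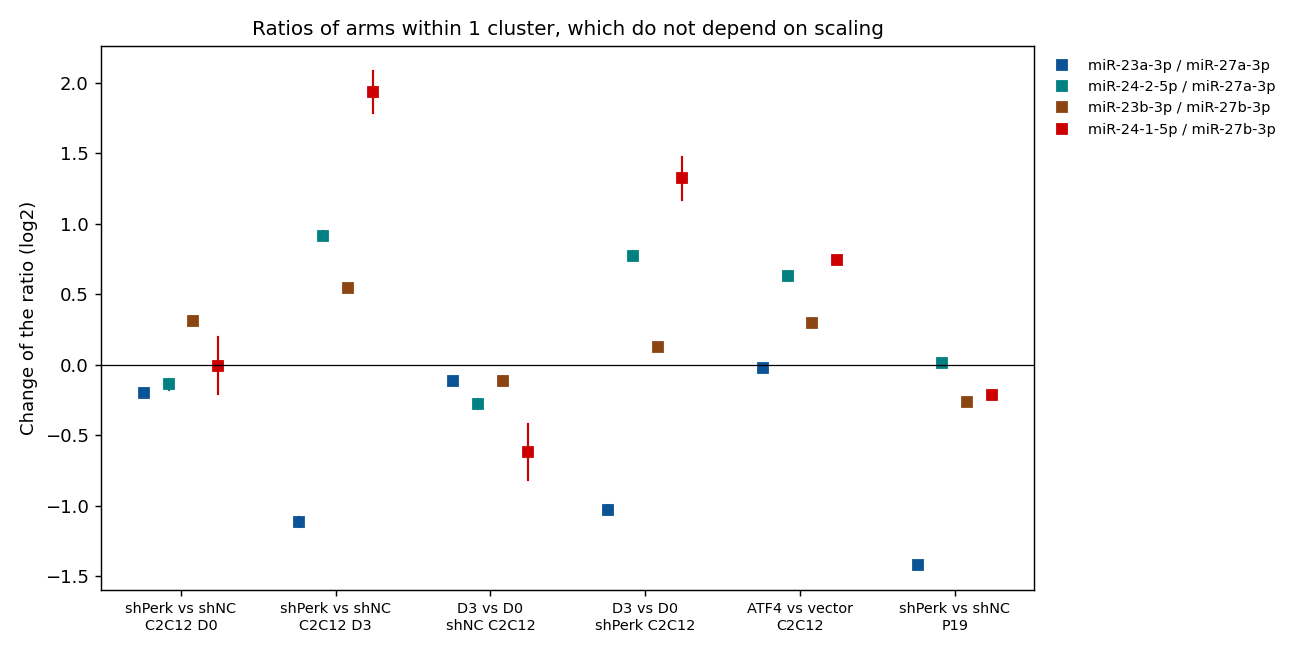
Change (log2) of 4 ratios between arms of the same cluster in the 6 comparisons, with 95% Woolf intervals from the reads where reads were counted. miR-23a-3p per miR-27a-3p is at -1.12 on knockdown at day 3 and at -1.42 in P19 cells, while it is at -0.02 with ATF4.

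Differentiation of the knockdown cells was compared with day 0 of the same line. miR-24-1-5p went from 460 to 1341 reads, with a log2 fold change of 1.89 (1.74 to 2.05), and miR-24-2-5p from 15155 to 26141 reads, with a log2 fold change of 1.13 (1.10 to 1.16). miR-24-3p went from 295612 to 484370 reads, with a log2 fold change of 1.06 (1.05 to 1.07). These 3 were the members higher by more than 2-fold, where 18.5% of the 573 miRNAs were (33.9% in either direction). miR-24-3p was within 2-fold under every other set of factors but TMM over 4 libraries, at 0.97 with DESeq2's median of ratios and with TMM factors from the filtered miRNAs, which left 2 members beyond 2-fold. With upper-quartile factors 1 member was beyond 2-fold, miR-24-1-5p (1.61), where 76 of the 573 miRNAs were higher and 135 lower. With library totals miR-24-1-5p (1.44) was higher and miR-23a-3p (-1.12) lower by more than 2-fold. With these totals 58 of the 573 miRNAs were higher and 161 lower by more than 2-fold, and the median of all was -0.40.

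In shPerk cells the b-cluster guides miR-23b-3p and miR-27b-3p had log2 fold changes of 0.69 (0.67 to 0.71) and 0.57 (0.56 to 0.58) from day 0 to day 3. miR-27a-3p had 0.36 (0.35 to 0.37), or -0.09 with library totals. miR-27a-5p was at -0.34 (-0.39 to -0.29) and miR-23a-3p at -0.67 (-0.70 to -0.64), with 24400 reads at day 0 and 12058 reads at day 3. The b to a ratio had a log2 change of 1.36 (1.32 to 1.40) for miR-23-3p and of 0.21 (0.19 to 0.22) for miR-27-3p, where shNC cells had 0.76 for both. The comparison of day 3 with day 0 shares its libraries with the knockdown comparisons, so these values are not independent of them.

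The 5p arm was a smaller part of the reads after differentiation for 4 hairpins of the clusters. For miR-27a, reads of the 5p arm per 1000 reads of the 3p arm were 84.5 and 75.8 in shNC and shPerk cells at day 0, and 56.1 and 46.7 at day 3. The log2 change from day 0 to day 3 was -0.59 (-0.64 to -0.54) in shNC and -0.70 (-0.75 to -0.65) in shPerk cells. For miR-27b the values were 14.4, 15.1, 8.08 and 8.84, with changes of -0.83 (-0.92 to -0.74) and -0.77 (-0.87 to -0.68).

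For miR-23b, 5p reads per 1000 3p reads were 12.02 and 18.2 in shNC and shPerk cells at day 0, and 8.84 and 6.91 at day 3. For miR-23a, with 33 to 168 reads of the 5p arm in a library, they were 3.25 and 6.89 at day 0, and 2.28 and 2.74 at day 3. The change from day 0 to day 3 in shNC cells was -0.44 (-0.70 to -0.19) for miR-23b and -0.51 (-1.02 to -0.01) for miR-23a. In shPerk cells it was -1.39 (-1.61 to -1.18) and -1.33 (-1.87 to -0.79). miR-24, read as 3p reads per read of both 5p arms, went from 22.8 to 25.3 in shNC and from 18.9 to 17.6 in shPerk cells. The log2 changes were 0.15 (0.12 to 0.19) and -0.10 (-0.13 to -0.07), so its 5p arms were a smaller part of the reads at day 3 in shNC cells and a larger part in shPerk cells.

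**Figure D5:**
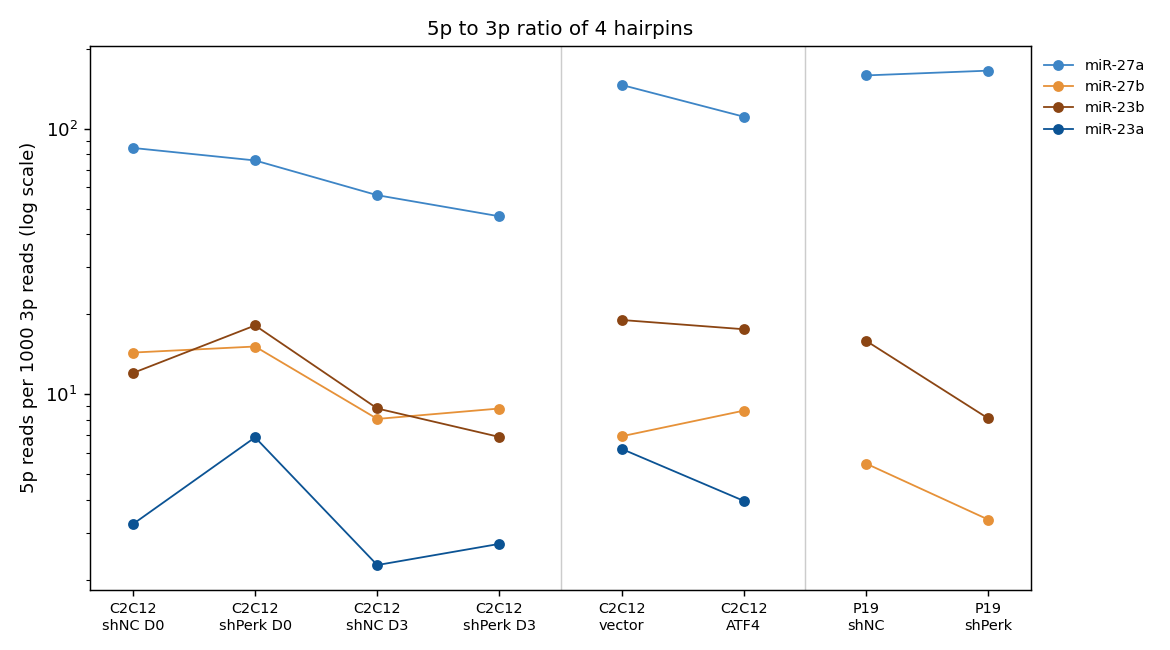
Reads of the 5p arm per 1000 reads of the 3p arm (log scale) for miR-27a, miR-27b, miR-23b and miR-23a in each library, with lines joining libraries of one experiment. All 4 hairpins are lower at day 3 than at day 0 within each hairpin line, and miR-23a has no P19 points because its 5p arm is not listed in that table.

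The other arms of the hairpins, miR-23a-5p, miR-23b-5p and miR-27b-5p, were all higher by more than 2-fold on knockdown at day 0, where 16.6% of all miRNAs were. Their log2 fold changes were 1.82 (1.41 to 2.26), 1.89 (1.65 to 2.12) and 1.06 (0.97 to 1.15), the last of which was within 2-fold with upper-quartile factors (0.83). On knockdown at day 3 they were at -0.20 (-0.86 to 0.44), 0.33 (0.09 to 0.57) and 0.27 (0.17 to 0.36), and none of the 3 passed 2-fold, where 45% of all miRNAs did in either direction. From day 0 to day 3 in shPerk cells miR-23a-5p was lower by more than 2-fold, at -1.997 (-2.59 to -1.46). In that comparison 88 of the 573 miRNAs were lower by more than 2-fold. miR-23b-5p was lower by more than 2-fold on knockdown in P19 cells, at -1.44, from 30.6 to 7.4 RPM, where 123 of the 696 miRNAs were. With ATF4, miR-23a-5p was at -1.16, from 22.2 to 9.53 RPM, where 54 of the 605 miRNAs were lower by more than 2-fold. miR-23b-5p and miR-27b-5p were at 0.67 and 0.81 in the same pair.

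PERK knockdown in P19 cells gave the view of the clusters outside muscle. The fold changes of this pair depended most on scaling: with library totals the median of all 696 miRNAs moved by -0.61. With TMM factors, 0 of 8 members passed 2-fold, where 35.3% of all miRNAs did in either direction and 17.7% did upward. The log2 fold changes were 0.92 for miR-27a-5p, 0.87 for miR-24-2-5p and 0.86 for miR-27a-3p. They were -0.15 for miR-24-3p, -0.21 for miR-27b-3p, -0.42 for miR-24-1-5p, -0.47 for miR-23b-3p and -0.56 for miR-23a-3p. Each sign was the same under each scaling, and with library totals 3 members were lower by more than 2-fold, miR-23a-3p (-1.17), miR-23b-3p (-1.08) and miR-24-1-5p (-1.03), where 35.5% of all miRNAs were.

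By a limit of 1.5-fold in either direction, 3 of 8 members passed in the P19 comparison, where 55.9% of all miRNAs did. In the C2C12 comparisons this was 7 of 8 on knockdown at day 0 (61.3% of all), 5 on knockdown at day 3 (63%), 4 in shNC differentiation (50.6%), 5 in shPerk differentiation (56.7%) and 3 with ATF4 (47.6%).

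Ratios within the P19 libraries do not carry this scaling. miR-27b-3p had 31.8 reads per read of miR-27a-3p in shNC and 15.2 in shPerk cells, a log2 change of -1.06. miR-24-1-5p had 294 and 120 reads per 1000 reads of miR-24-2-5p, a log2 change of -1.29 that rests on only 15.5 and 7.63 RPM of miR-24-1-5p. These ratios come from RPM values and have no interval. The b to a ratio of miR-23-3p was 7.89 and 8.42, a log2 change of 0.09. miR-23a-3p had 397 and 148 reads per 1000 reads of miR-27a-3p, a log2 change of -1.42. The epithelial miRNAs miR-200a, miR-200b, miR-200c, miR-141 and miR-429 (3p arms) summed to 317 RPM in shNC and 1345 RPM in shPerk P19 cells, with 4 and 5 of the 5 above 0 (miR-141-3p was listed at 0 in shNC), and their part in the result was not tested.

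The total of miR-24-3p against the other guides also differed between the lines. Per read of the 4 miR-23 and miR-27 guides together, the C2C12 libraries held 0.739 to 1.39 reads of miR-24-3p and the P19 libraries 0.231 and 0.237. The highest C2C12 value was that of shPerk cells at day 3 and the lowest that of the ATF4 library. In bulk libraries, fewer cells with an miRNA and less of it per cell cannot be told apart.

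The pattern of each guide was compared with 124 other miRNAs of at least 100 CPM or RPM on average in each experiment. The measure was the root mean square difference of log2 values over the 8 libraries, each value centered within its experiment. The b-cluster guides were near each other: miR-27b-3p was the second nearest to miR-23b-3p and miR-23b-3p the third nearest to miR-27b-3p, at a difference of 0.19. The a-cluster guides were not: miR-27a-3p ranked 59 of 124 for miR-23a-3p, at 0.50, and miR-23a-3p ranked 52 for miR-27a-3p. The nearest miRNA was miR-361-5p for miR-23a-3p (0.14), miR-320-3p for miR-27a-3p (0.14), miR-181b-5p for miR-23b-3p (0.10), miR-152-3p for miR-27b-3p (0.11) and miR-30d-5p for miR-24-3p (0.16). For miR-24-3p the b-cluster guides miR-27b-3p (rank 9, at 0.29) and miR-23b-3p (rank 13, at 0.31) were close to miR-27a-3p (rank 17, at 0.33). Only miR-23a-3p (rank 68, at 0.52) was far from it.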

How the data were processed

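Small RNA was sequenced from 8 samples, with 1 library each. A company made them by linker ligation, reverse transcription, PCR and gel selection, and the authors annotated reads with bowtie (mm10, GRCm38). The bowtie version and the miRNA release are not given in the sources used here. Values of the 4 C2C12 hairpin libraries are the raw read count per mature miRNA, as deposited, and the library columns that 2 tables share are identical. For the ATF4 and P19 pairs the authors deposited RPM values, with those under 1 RPM listed at 0. Low RPM values are near whole multiples of 1 step, by which 1 RPM is about 10.6 and 12.2 reads (vector, ATF4) and 7.91 and 4.46 reads (P19 shNC, shPerk), but no test on reads was run. The deposited tables also hold the authors' log2 fold change and p-value, and in the ATF4 and P19 tables a q-value, which were not used.

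The members and lists were chosen with earlier results of these data known. miRNAs with at least 1 CPM or RPM in at least 1 library of a pair were kept, and all 8 members passed in each comparison. Log2 fold changes used edgeR's TMM factors from all miRNAs of the pair and a prior count of 0.125. An RPM value of 0 was set to 1. A miRNA was called beyond 2-fold, with no test between conditions. Intervals of fold changes are Clopper-Pearson, those of ratio changes Woolf (95%). The named miRNAs are the members, the other arms of their hairpins, miR-128-3p, and the 3 nearest in pattern to each guide, of which the nearest is given. The marker lists were muscle, pluripotent, blood, epithelium and liver. A simulated day 3 pair had 544 miRNAs tested. Of 200 changed miRNAs (4-fold or 8-fold) the 2-fold limit recovered 100.0%, with 11 false calls. The intervals held 93.0% of the true values after these were shifted by the scaling offset of the simulation. The simulated counts had Poisson error alone. This checks the calculation and does not bear on smaller changes or on spread between replicates. Alternatives were other scalings, filters, prior counts, a 1.5-fold limit and a test on reads, and TMM factors from the filtered miRNAs were chosen after seeing the data. The work used Python 3.11.15, scipy 1.17.1, R 4.3.3, edgeR 4.0.16 and DESeq2 1.42.0.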

Additional observations from a re-analysis of the deposited data

Results flagged for a closer look

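Under every scaling tried, some members moved one way in one group of cells and the opposite way in another under the same contrast. Each group has 1 library per condition, and none of these differences was tested. The knockdown change of miR-23a-3p was 0.74 at day 0 and -0.47 at day 3 in C2C12 cells, a difference of -1.21 on the log2 scale. Its change from day 0 to day 3 was 0.56 in shNC and -0.67 in shPerk cells, a difference of -1.23, which rests on the same 4 libraries.

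Knockdown changes were above 0 in C2C12 cells at day 0 and below 0 in P19 cells for miR-23b-3p (difference -1.76), miR-24-1-5p (-1.40), miR-23a-3p (-1.31), miR-27b-3p (-1.19) and miR-24-3p (-0.69). They were above 0 in C2C12 cells at day 3 and below 0 in P19 cells for miR-24-1-5p (-2.49), miR-24-3p (-1.21) and miR-23b-3p (-1.15). The P19 changes themselves were small for miR-24-3p (-0.15) and miR-27b-3p (-0.21). The P19 change of miR-24-1-5p (-0.42) rests on 15.5 and 7.63 RPM. Cell line and experiment differ together in these contrasts and cannot be told apart. The C2C12 hairpin tables hold counts and the P19 table RPM values, and each pair was scaled on its own, as in every comparison.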

How the results depend on the processing

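No paired analysis was possible because each condition has 1 library and the labels give no replicate numbers, and no replicate could be left out. Of the 48 log2 fold changes of members, 44 kept their sign under every scaling. The exceptions were miR-27b-3p on knockdown at day 3 (-0.13 with library totals, and below 0 with upper-quartile factors), miR-27a-5p in shNC differentiation (-0.28 with library totals, and below 0 with upper-quartile factors and with TMM factors from filtered miRNAs), miR-27a-3p in shPerk differentiation (-0.09 with library totals) and miR-24-2-5p with ATF4 (-0.24 with upper-quartile factors). The number of members past the limit was 7, 5, 4, 5, 3 and 3 with a 1.5-fold limit, for knockdown at day 0 and day 3, differentiation of shNC and of shPerk cells, ATF4 and P19, against 1, 3, 2, 3, 1 and 0 at 2-fold. It was 3 for knockdown at day 0 with TMM factors over 4 libraries, 1 for shNC differentiation and 3 for P19 with library totals, and 1 for shPerk differentiation with upper-quartile factors. The median change of the members between the knockdown comparisons, day 3 minus day 0, was -0.35, or -0.46 with library totals. With both arms summed, the b share of miR-27 was 56.5%, 57.3%, 69.1% and 61.3% in the hairpin libraries (shNC and shPerk at day 0, then at day 3), 57.8% with the vector and 73.6% with ATF4. The other filters, prior counts and the test on reads moved no count of members by over 1.5 times. Library totals moved the median of all miRNAs by -0.16, -0.27, -0.35, -0.45, -0.06 and -0.61 in the 6 comparisons, in the order above, and upper-quartile factors by up to -0.38. The numbers of all miRNAs higher and lower by 2-fold went with library totals from 100 and 120 to 78 and 143, from 122 and 137 to 93 and 166, from 91 and 81 to 51 and 140, from 106 and 88 to 58 and 161, and from 123 and 123 to 46 and 247 (P19), and with upper-quartile factors from 88 and 54 to 53 and 124 (ATF4). Depth limits the minor arms miR-23a-5p (33 to 168 reads in the hairpin libraries), miR-23b-5p (210 to 541, with intervals wider than those of miR-24-1-5p) and miR-24-1-5p. The spread between replicate libraries is unknown, so no interval here bears on it.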

Other observations

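miR-128-3p, which comes from other genes, has the seed CACAGUG, 1 base offset from the UCACAGU of miR-27, so that both hold CACAGU. RefSeq gives it as follows, with the seed in capitals.
miR-128-3p (chr1:128202404-128202424 and chr9:112118644-112118664): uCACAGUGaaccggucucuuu
Its levels were 6313 and 1791 CPM in shNC and shPerk cells at day 0, and 10889 and 2343 CPM at day 3. It was at 2927 RPM with the vector, 2395 RPM with ATF4, and 2628 and 1630.5 RPM in P19 shNC and shPerk cells. At day 0 the log2 fold change on knockdown was -1.66 (95% interval -1.68 to -1.63) for miR-128-3p against 0.94 for miR-27a-3p and 0.98 for miR-27b-3p. In the same order the values were -1.95, 0.65 and 0.14 on knockdown at day 3. They were -0.08, 0.86 and -0.21 on knockdown in P19 cells, and -0.23, -0.48 and 0.49 with ATF4. From day 0 to day 3 the 3 miRNAs moved the same way, at 1.14, 0.67 and 1.43 in shNC cells and 0.83, 0.36 and 0.57 in shPerk cells.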
